A study of Mus musculus with 2 samples.

Results

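The genes described here are 9 microRNA (miRNA) genes known from blood cells, of 2202 annotated miRNA genes counted in small RNA libraries of the mouse adrenal gland. They were chosen by name. Mir150 and Mir155 are known from lymphocytes, Mir223 from granulocytes and monocytes, and Mir142 from all leukocytes. Mir146 and Mir146b are induced in innate immune cells and endothelium, and Mir451a, Mir144 and Mir486 are known from red cells. All 9 symbols matched 1 gene each in the GENCODE M21 annotation of the mm10 genome, where the gene also called Mir142a is named Mir142. The study has 1 group, adult female mice of strain 5xFAD/CAST aged 8 to 10 months. 5xFAD is a transgenic model of Alzheimer's disease in which the neuronal Thy1 promoter drives mutant human amyloid precursor protein and presenilin. CAST is an inbred line of castaneus origin. The labels do not say which animals carried the transgenes and name no treatment, so there is no contrast between conditions. The 2 libraries are called biological replicates 1 and 2 and come from biosamples of their own under 1 common donor identifier. It is not stated whether they came from separate animals, so the spread between them may be technical.

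A miRNA is cut from a hairpin precursor and guides Argonaute proteins to messenger RNAs, mostly through its seed, bases 2 to 8. Blood cells carry miRNAs that most solid tissues make little of, and a dissected gland that was not flushed brings red cells and leukocytes with it, beside the macrophages and lymphocytes that reside in it. The labels do not say whether these glands were flushed. Mir144 and Mir451a are transcribed together under the erythroid factor GATA1, and miR-451a is cut by Argonaute 2 rather than by Dicer. Mir150 restrains the transcription factor Myb in lymphocytes, Mir223 limits granulocyte production and activity, and Mir146 dampens signalling from Toll-like receptors.

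RefSeq sequences of build GRCm38.p6 were found for 8 of the 9 genes. Mir486 and Mir150 are named only. The mature miRNAs below are products of the other member genes, shown so that their seeds can be compared, with the seed in capitals, written 5′ to 3′.
miR-451a: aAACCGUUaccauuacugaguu
miR-144-3p: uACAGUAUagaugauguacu
miR-142a-5p: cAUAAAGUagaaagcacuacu
miR-142a-3p: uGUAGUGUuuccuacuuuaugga
miR-155-5p: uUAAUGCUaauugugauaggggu
miR-223-3p: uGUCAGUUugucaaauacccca
miR-146a-5p: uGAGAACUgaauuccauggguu
miR-146b-5p: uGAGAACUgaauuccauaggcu
Among these, the products of Mir146 and Mir146b share 1 seed, and no other listed miRNA has a seed found in another gene of the RefSeq table. miR-146a-5p and miR-146b-5p differ by 2 substitutions, G18A and U21C, counted from the 5′ end with the base of miR-146a-5p first. The precursors of both genes have a longest common stretch of 21 bases.

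The hairpins of Mir451a and Mir142 are shown because the counts of these genes depend on which deposited column is read. Capitals mark the mature miRNAs.
Mir451a: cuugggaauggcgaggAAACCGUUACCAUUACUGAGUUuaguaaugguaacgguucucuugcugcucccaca
Mir142: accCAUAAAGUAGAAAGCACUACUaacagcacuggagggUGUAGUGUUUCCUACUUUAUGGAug
Each is contained in the reverse complement of a second annotated miRNA hairpin on the opposite DNA strand. For Mir451a this is Mir451b, which spans the same 72 bases, and for the 64 bases of Mir142 it is Mir142b, which spans 115 bases. Mir486 overlaps an opposite-strand miRNA gene too, Mir3107, and shares a stretch of 22 bases with it. A read of that stretch matches both genes, and reads with several genomic matches were assigned to no gene, so the count of Mir486 is uncertain. The same holds for reads confined to the 21 bases common to Mir146 and Mir146b. None of the other members shared a 20-base stretch with another miRNA gene, against 1084 of all 2202 genes that did.

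In mm10, Mir144 (ENSMUSG00000065401.1) occupies 78073005 to 78073070 and Mir451a (ENSMUSG00000070065.1) 78073170 to 78073241 on the plus strand of chromosome 11. They are 99 bases apart and, apart from Mir451b opposite to Mir451a, overlap no other annotated gene, with Eral1, a mitochondrial ribosome assembly gene, as the nearest coding gene. Mir142 (ENSMUSG00000105196.1) lies on the same chromosome at 87756864 to 87756927, within an intron of the noncoding gene Mir142hg. Mir146 (ENSMUSG00000065601.1) is intergenic there at 43374397 to 43374461 on the minus strand. Mir155 (ENSMUSG00000065397.1) lies in an exon of its noncoding host Mir155hg on chromosome 16 at 84714140 to 84714204. Mir223 (ENSMUSG00000076066.1) lies in an exon of the noncoding gene F630028O10Rik on chromosome X at 96242817 to 96242926. Mir150 (ENSMUSG00000065495.1) is intergenic on chromosome 7 at 45121757 to 45121821. Mir146b (ENSMUSG00000070127.2) sits inside an intron of Mfsd13a, at 46342762 to 46342870 of chromosome 19. Mir486 (ENSMUSG00000070084.3) occupies 23142555 to 23142682 of chromosome 8, within an intron of Ank1, which encodes the red cell membrane protein ankyrin 1.

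Replicate 1 held 7774567 reads and replicate 2 held 15391360. The strand column, which counts reads of 1 DNA strand and is used throughout, held 3635851 and 6924829 reads on miRNA genes. Levels are CPM, the reads of a gene per 1000000 of these. The limit that a count of 0 allows, set at 3 counts, was 0.825 CPM in replicate 1 and 0.433 CPM in replicate 2. All intervals are exact Clopper-Pearson 95% intervals and, like these limits, cover counting error only. Amplified reads need not be separate molecules, and whether they carried molecular identifiers is not stated here. No miRNA of the lists marks the adrenal gland alone. Mir375, known from endocrine cells, stood at 45225 ± 1738 CPM (SD, n = 2), against 93.3 ± 21.4 CPM for Mir122, which marks liver. The lists for striated muscle and for kidney and intestine summed to at most 2.75 and 57.2 CPM in a library, and 5 of 6 and 2 of 4 of their genes are undercounted through shared sequence.

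The 9 genes together took 0.273% of miRNA-gene reads in replicate 1 and 0.245% in replicate 2. Of the 9, 8 had at least 10 reads in each library, the minimum for detection, and Mir146b did not. The tables count precursor genes and do not separate the arms of a hairpin, and ligation efficiency differs between miRNAs, which limits comparisons of level between genes.

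Among the lymphocyte miRNAs, Mir150 had 2062 reads in replicate 1, which is 567 CPM (542.9 to 592), and 2975 reads in replicate 2, which is 430 CPM (414 to 445). Mir155, which is induced when lymphocytes and macrophages are activated, had 994 reads or 273 CPM (257 to 291) in replicate 1 and 1616 reads or 233 CPM (222 to 245.0) in replicate 2. Both were higher in replicate 1, and for each gene the intervals of the libraries did not overlap. Differences beyond counting error were common, since Fisher's exact test called 52.5% of the 455 genes tested, in either direction. Mir150 ranked 109 and Mir155 ranked 141 by mean CPM among all 2202 genes.

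Mir223, the miRNA of granulocytes and monocytes, had 331 reads or 91.0 CPM (81.5 to 101) in replicate 1. In replicate 2 it had 507 reads or 73.2 CPM (67.0 to 79.9), lower than in replicate 1, with intervals that did not overlap. Mir142, which leukocytes of all lineages carry, had 785 reads or 216 CPM (201 to 232) in replicate 1 and 813 reads or 117 CPM (110 to 126) in replicate 2. Replicate 1 was the higher library for Mir142 as well, by 1.84-fold, against 1.24-fold for Mir223.

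Mir146 was the most abundant member and the only detected one that was higher in replicate 2. It had 4122 reads or 1134 CPM (1099 to 1169) in replicate 1 and 9729 reads or 1405 CPM (1377 to 1433) in replicate 2, with intervals that did not overlap. Its paralog Mir146b had 2 reads in replicate 1 and 3 in replicate 2, which is 0.550 CPM (0.0666 to 1.99) and 0.433 CPM (0.0893 to 1.27). These values are at or under the limit that a count of 0 allows, so no fold is given for Mir146b, and reads that match both paralogs were not assigned.

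Mir451a, the main miRNA of red cells, had 1380 reads in replicate 1 and 1041 in replicate 2, although replicate 2 was sequenced more deeply. That is 380 CPM (360 to 400) and 150 CPM (141 to 160). Mir144 had 174 reads or 47.9 CPM (41.0 to 55.5) in replicate 1 and 170 reads or 24.6 CPM (21 to 28.5) in replicate 2. Both genes of the cluster were higher in replicate 1 with no overlap of intervals, by 2.52-fold for Mir451a and 1.95-fold for Mir144. Mir486 had 67 reads or 18.4 CPM (14.3 to 23.4) in replicate 1 and 108 reads or 15.6 CPM (12.8 to 18.8) in replicate 2, and its intervals overlapped.

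**Figure D1:**
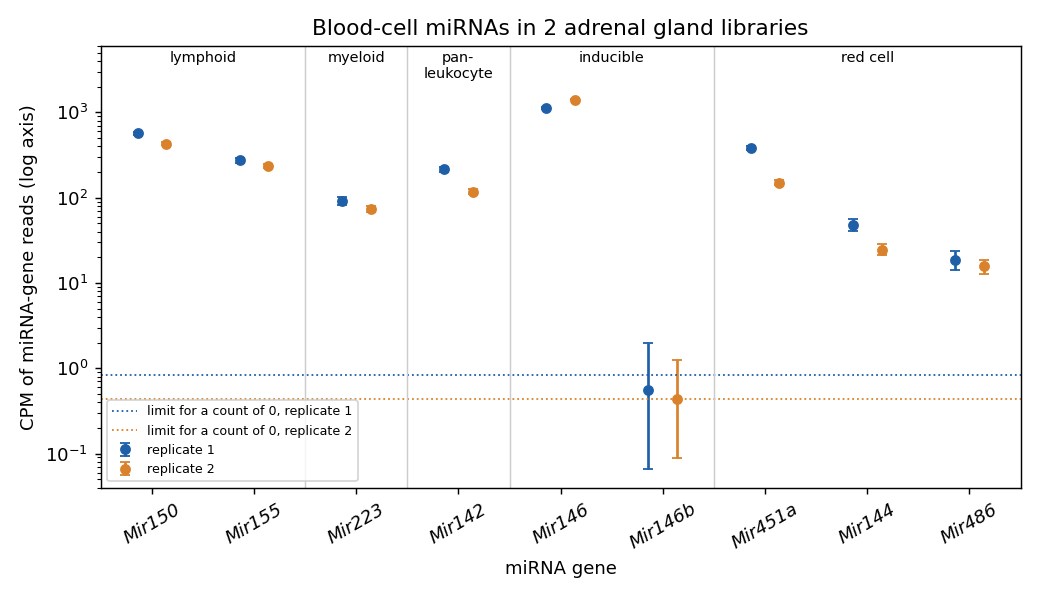
CPM of the 9 genes (log axis), with 1 point per library, exact Clopper-Pearson 95% intervals as bars and dotted lines at the limit that a count of 0 allows. Mir146 at 1134 and 1405 CPM stands above all other members, Mir146b lies near the limit, and the libraries are farthest apart at Mir451a among the detected members.

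Ordered by mean, the levels were 1269 ± 192 CPM for Mir146, 498 ± 97.2 for Mir150, 265 ± 162 for Mir451a, 253 ± 28.3 for Mir155 and 167 ± 69.7 for Mir142. Mir223 at 82.1 ± 12.6 CPM, Mir144 at 36.2 ± 16.5, Mir486 at 17.0 ± 2.00 and Mir146b at 0.492 ± 0.0826 followed (all SD, n = 2). The place of Mir486 is uncertain, since its count leaves out reads of the stretch shared with Mir3107. Mir451a and Mir155 did not differ beyond their spread, since the lower value of Mir451a (150 CPM) was under the higher one of Mir155 (273 CPM). For the other neighbours in this order the 2 values of one gene did not overlap those of the next, although Mir150 at its lowest (430 CPM) was close to Mir451a at its highest (380 CPM). Nearest in mean level to Mir146 among all genes were Mir134 at 1272 CPM and Mir15a at 1240 CPM. Nearest to Mir146b were Mir6992 at 0.492 CPM and Mir7008 at 0.485 CPM.

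The next question was how far the libraries differed in these genes. By a two-sided Fisher's exact test (Benjamini-Hochberg adjusted over 455 genes with at least 10 reads in both libraries together), 6 of the 8 detected members were lower in replicate 2 and 1 was higher. The test called 52.5% of all genes, 35.6% lower and 16.9% higher in replicate 2, so a call alone sets a member little apart. Of the 455 genes, 356 had at least 10 reads in each library, as all 8 members did. Genes with fewer reads are harder to call, so these shares come from an unlike set. Fisher's test compares these libraries only and allows for counting error alone. The log2 ratio of replicate 2 over replicate 1 had a median of -0.36 over the 8 members and of -0.18 over all 455 genes.

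Mir451a had the lowest log2 ratio of the members, -1.34 (interval -1.45 to -1.22, adjusted p = 1.74e-112 by Fisher's exact test), and 26 of the 455 genes lay below it. Mir144 followed at -0.96 (-1.28 to -0.65), an interval that overlaps that of its cluster partner, with an adjusted p of 3.08e-09 by the same exact test. Mir142 stood at -0.88 (-1.02 to -0.74, adjusted p = 1.01e-32, Fisher's exact test). These 3 genes were the farthest below the median of all genes.

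The other leukocyte genes differed less. Mir150 had a log2 ratio of -0.40 (-0.48 to -0.32), Mir223 of -0.32 (-0.52 to -0.11) and Mir155 of -0.23 (-0.34 to -0.11), with adjusted p of 3.70e-21, 0.00494 and 0.000246 by Fisher's exact test. With TMM normalization, which shifts every log2 ratio by 0.14, Mir223 stood at -0.17 (adjusted p = 0.163) and Mir155 at -0.09 (adjusted p = 0.224, exact binomial test), so neither was called. Mir146 had a log2 ratio of 0.31 (0.26 to 0.36, adjusted p = 6.27e-31, Fisher's exact test). Mir486 at -0.24 (-0.69 to 0.22) was not called, with an adjusted p of 0.414, and its interval spans values below and above 0.

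edgeR's exact test, which adds the spread between libraries as 1 common dispersion (a biological coefficient of variation of 31.4% over 356 genes), called none of the members. That test called 5 of the 455 genes, or 1.1%. Mir451a was the only member at an unadjusted p under 0.05 (p = 0.0437, adjusted p = 0.838, edgeR exact test), as were 26 of all genes. The adjusted p was 1 for the other 7 detected members. The dispersion came from the same pair of libraries.

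**Figure D2:**
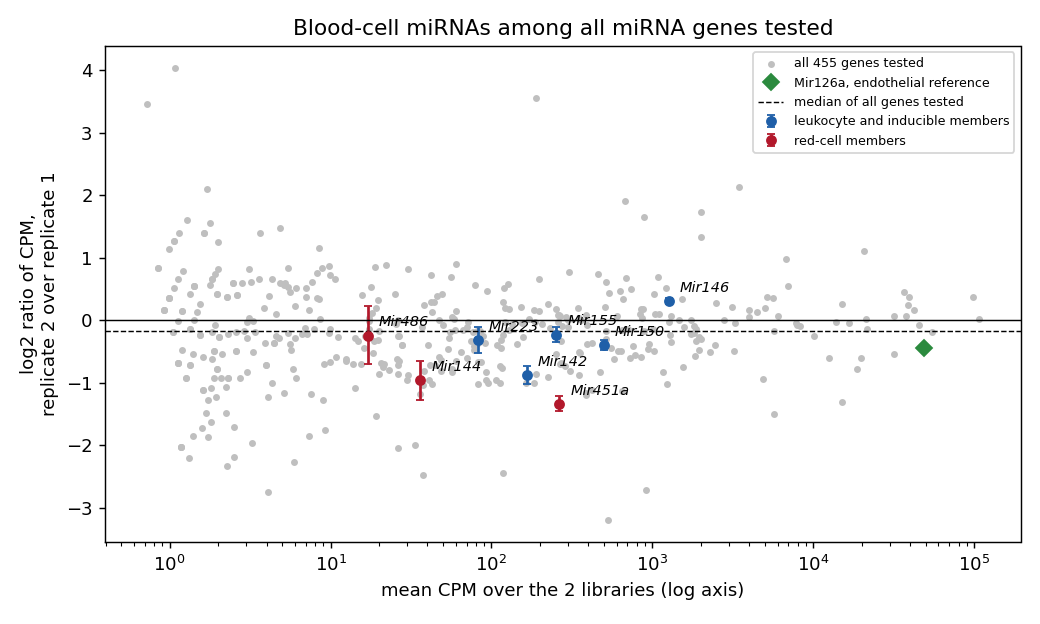
Log2 ratio of CPM, replicate 2 over replicate 1, against mean CPM (log axis) for the 455 genes tested, with 95% counting intervals for the 8 detected members and a dashed line at the median of all genes. Mir451a (-1.34), Mir144 (-0.96) and Mir142 (-0.88) lie below the other members, Mir150, Mir155, Mir223 and Mir486 lie between -0.40 and -0.23, and Mir146 (0.31) lies above 0.

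Ratios between genes within a library do not depend on the library total. The ratio of Mir223 to Mir150, granulocyte and monocyte signal against lymphocyte signal, was 0.161 (0.142 to 0.180) in replicate 1 and 0.170 (0.155 to 0.187) in replicate 2. Each value lies within the interval of the other. The ratio of Mir155 to Mir150 was 0.482 (0.447 to 0.520) and 0.543 (0.511 to 0.577), with intervals that overlapped in part although each value lies outside the interval of the other. The ratio of Mir142 to Mir150 was 0.381 (0.350 to 0.414) and 0.273 (0.253 to 0.295), lower in replicate 2, and that of Mir146 to Mir150 was 2.00 (1.90 to 2.11) and 3.27 (3.14 to 3.41), higher in replicate 2. Neither of these pairs of intervals overlapped.

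Counts of the red cell genes differed among themselves in their proportion to leukocyte genes. The ratio of Mir451a to Mir150 was 0.669 (0.625 to 0.717) in replicate 1 and 0.350 (0.326 to 0.376) in replicate 2, a 1.91-fold difference. Against Mir223, Mir451a stood at 4.17 (3.70 to 4.71) and 2.05 (1.84 to 2.29), a 2.03-fold difference. Against Mir142 the ratio was 1.76 (1.61 to 1.92) and 1.28 (1.17 to 1.41), a smaller difference of 1.37-fold. None of these 3 pairs of intervals overlapped. Mir144 to Mir150 was also higher in replicate 1, at 0.0844 (0.0719 to 0.0985) against 0.0571 (0.0487 to 0.0667), whereas Mir144 to Mir142 was 0.222 (0.187 to 0.262) and 0.209 (0.176 to 0.247), with overlapping intervals. The count of Mir486 did not follow that of Mir451a, but it leaves out reads of the 22 bases shared with Mir3107. The level of its mature miRNA is thus not known from this count. The ratio of Mir486 to Mir150 was 0.0325 (0.0251 to 0.0414) and 0.0363 (0.0297 to 0.0440). Its ratio to Mir142 was 0.0854 (0.0655 to 0.110) and 0.133 (0.108 to 0.163), and the intervals overlapped in both cases. All these intervals cover counting error only, so the difference between the samples was not tested against biological spread.

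Within the red cell genes, the ratio of Mir451a to its cluster partner Mir144 was 7.93 (6.77 to 9.34) in replicate 1 and 6.12 (5.20 to 7.24) in replicate 2, with overlapping intervals. Mir451a to Mir486 gave 20.6 (16.1 to 26.7) and 9.64 (7.90 to 11.9), which did not overlap. The count of Mir486 misses reads shared with Mir3107.

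**Figure D3:**
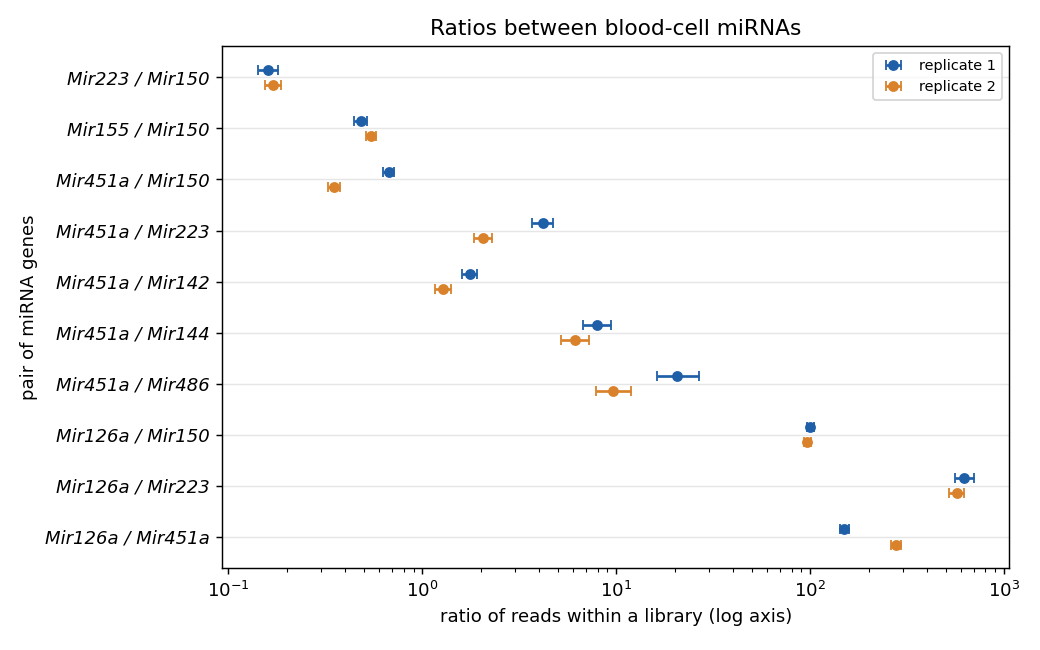
Ratio of reads of 2 miRNA genes within each library (log axis), with exact 95% counting intervals. The points of the libraries lie close for Mir223 over Mir150 (0.161 and 0.170) and for Mir126a over Mir150 (99.9 and 96.7), and apart for the pairs of Mir451a with Mir150, Mir223, Mir142, Mir486 and Mir126a.

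Summed by cell class, the lymphoid genes Mir150 and Mir155 reached 840 CPM in replicate 1 and 663 CPM in replicate 2, and the myeloid gene Mir223 91.0 and 73.2 CPM. The 3 red cell genes reached 446 and 190 CPM, a 2.34-fold difference against 1.27-fold for the lymphoid pair. Among the reads of these classes and Mir142 together, 7 genes in all, lymphoid reads made up 52.8% (51.5 to 54.0) in replicate 1 and 63.5% (62.4 to 64.6) in replicate 2. The red cell part was 28.0% (26.8 to 29.2) and 18.2% (17.4 to 19.1), and the myeloid part 5.71% (5.13 to 6.34) and 7.01% (6.43 to 7.62). Lymphoid reads thus outnumbered myeloid reads 9.23 to 1 in replicate 1 and 9.06 to 1 in replicate 2. This sets 2 genes against 1, and Mir155 is also induced in activated macrophages. The ratio of Mir223 to Mir150 alone was 0.16 in replicate 1 and 0.17 in replicate 2, against 0.11 and 0.11 to both lymphoid genes. These are shares of reads, not of cells, and in a bulk sample fewer cells of a type and less miRNA per cell cannot be told apart. Because Mir142 is known from all leukocytes, the parts do not split the reads by cell class.

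Blood vessels offer another scale, since endothelium lines the vessels that hold the blood. Mir126a, the endothelial miRNA hosted by Egfl7, stood at 56684 CPM in replicate 1 and 41532 CPM in replicate 2. It overlaps the opposite-strand miRNA gene Mir126b, and its count in the both-strand column is not given here. The ratio of Mir126a to Mir150 was 99.9 (95.7 to 104) and 96.7 (93.2 to 100.3), and its ratio to Mir223 was 623 (559 to 696) and 567 (520 to 620), with overlapping intervals in both cases. Its ratio to Mir451a was 149 (142 to 158) in replicate 1 and 276 (260.0 to 294) in replicate 2. The intervals for Mir451a did not overlap. Ratios of Mir126a to the leukocyte genes Mir142 and Mir155 are not given. The log2 ratio of Mir142 between the libraries (-0.88) was below that of Mir126a (-0.45), as for Mir451a, and that of Mir155 (-0.23) was above it. Beside Mir126a, the smooth muscle miRNAs Mir143 and Mir145a stood at 21677 ± 1479 and 1030 ± 243 CPM (SD, n = 2). The vessel wall list also holds Mir126b, the partner of Mir126a. All 4 genes of the list were lower in replicate 2 by Fisher's exact test, with a median log2 ratio of -0.47, beside 35.6% of all genes lower and a median of -0.18. edgeR's exact test called none of the 4. Mir146, which endothelium also expresses, moved the other way from Mir126a, with Mir126a at 50.0 (48.5 to 51.6) and 29.6 (29.0 to 30.2) reads for each read of Mir146.

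The levels of 3 members rested on the choice of count column. In the column that counts both strands, Mir451a, Mir142 and Mir486 had 0 reads in both libraries, while the other 6 members had the same counts as in the strand column, apart from 1 and 3 opposite-strand reads added to Mir150. The 3 genes are those that overlap an opposite-strand miRNA gene, and their reads amount to 22.5% of member reads in replicate 1 and 11.6% in replicate 2. The opposite-strand column of Mir451b held 1380 and 1041 reads, the same numbers as the strand column of Mir451a. Mir451b itself had 0 reads on its own strand in either library, and so had Mir142b. Among the 2138 miRNA genes with no such partner, 99.99% of stranded reads fell in the strand column in both libraries. In the both-strand column the red cell signal consists of Mir144 alone.

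**Figure D4:**
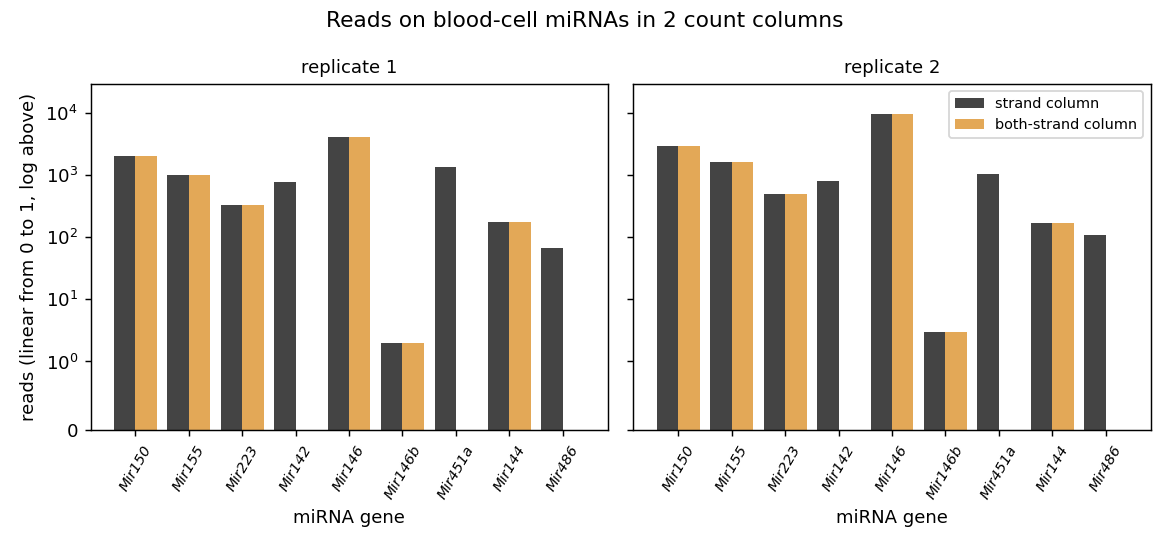
Reads on each of the 9 genes in the strand column (dark bars) and the both-strand column (light bars) of each library, on an axis that is linear from 0 to 1 and logarithmic above. Mir142, Mir451a and Mir486 have no light bar, and for the other 6 genes the bars differ by at most 3 reads.

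Log2 ratios can also be set out by overlap with a partner gene. The 29 detected genes with an opposite-strand miRNA gene had a median log2 ratio of -0.33 (range -2.72 to 0.76), and the 327 without one of -0.18 (-3.19 to 3.55), a difference that was not tested. Mir451a (-1.34), Mir142 (-0.88) and Mir486 (-0.24) are among the former and Mir144 (-0.96) among the latter. In the strand column used here, Mir451b and Mir142b had 0 reads in both libraries. The part of the overlap in the values of these members was not tested.

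Other miRNAs linked to blood were taken from lists of general knowledge, and adrenal cells express many of them too. Of 12 miRNAs known from red cells and reticulocytes, 10 were detected, and of the 11 tested 5 were lower and 2 higher in replicate 2 by Fisher's exact test, beside 35.6% and 16.9% of all genes. Their median log2 ratio was -0.21, beside -0.18 over all genes. Mir93, from a cluster that supports proliferation, stood at 2020 ± 299 CPM (SD, n = 2) with a log2 ratio of -0.30. Mir106b of the same cluster was at 637 ± 153 CPM with -0.50, and Mir92-1, a proliferation-linked gene with sequence shared with another gene, was at 851 ± 242 CPM with -0.59. The lowest log2 ratio of this list was that of Mir185, named here after its values were seen, at -3.19 (950.5 CPM in replicate 1 and 104 CPM in replicate 2). It was the only gene of the list that edgeR's exact test called (adjusted p = 0.00145), and it lay further below 0 than Mir451a.

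Of 16 other miRNAs known from leukocytes, 15 were tested and detected, 7 lower, 3 higher and 5 not called by Fisher's exact test, with a median log2 ratio of -0.17. Over all genes 35.6% were lower and 16.9% higher, with a median of -0.18. Mir652, known from monocytes, led at 13902 ± 218 CPM with a log2 ratio of -0.03. Mir28a, known from germinal centre B cells, was at 2780 ± 1.07 CPM with a log2 ratio of 0.00, and its count is uncertain because of shared sequence. Mir132, which is induced by cAMP signalling as well as in immune cells, was at 1220 ± 304 CPM with a log2 ratio of 0.51. All 3 exceeded Mir150 in level.

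Of the genes that averaged 100 CPM or more, those closest to Mir451a in log2 ratio were Mir125a (-1.31), Mir222 (-1.20) and Mir30e (-1.51), of which Mir125a was far more abundant at 15118 CPM. Closest to Mir150 were Mir328 (-0.40), Mir181c (-0.41) and Mir323 (-0.39), and closest to Mir223 were Mirlet7a-2 (-0.32), Mir485 (-0.30) and Mir93 (-0.30). With 2 libraries a pattern is a single ratio, so this likeness is a description.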

How the data were processed

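Small RNA of 2 adrenal gland libraries of 1 group was measured. The authors deposited raw counts, 1 table for each library, with 3 unnamed count columns for 2202 miRNA genes. Per the file headers and notes, the assembly was mm10 and the annotation GENCODE M21. Per the labels, total RNA was used with a size range below 30, unit not stated. Aligner, counter and trimming: not given in the sources used here. From their values the columns were read as both strands, 1 strand (the strand column) and the other strand. Totals leave out rows without a gene. In the both-strand column these rows held unmapped (16.1% of reads in replicate 1 and 16.5% in replicate 2) and multimapping reads (31.6% and 33.6%). They also held featureless (5.55% and 4.99%) and ambiguous reads (6.12% and 5.24%). The strand-column totals used here exceed the both-strand totals of 3159960 and 6119201 reads. They thus include reads that the both-strand column left without a gene, such as those of Mir451a and Mir142.

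The members, lists and tests were chosen with earlier results of these data known. CPM used strand-column totals, and log2 ratios an offset of 0.5 counts. Genes with at least 10 reads over both libraries were tested with Fisher's exact test, adjusted by Benjamini-Hochberg at 0.05. The dispersion for edgeR's exact test came from an intercept-only fit with TMM over detected genes, and the test itself used plain totals. For TMM and for DESeq2 size factors, totals were scaled and an exact binomial test was run. Intervals of ratios are binomial intervals turned into odds. Shared 20-base stretches were searched among annotated miRNA transcripts only. RefSeq synonyms (GRCm38.p6) gave Mir92-1 and Mir3107 for listed older symbols. Genes named are the members, their opposite-strand partners, the 3 most abundant detected genes of each list, the 3 genes of at least 100 CPM closest in log2 ratio to Mir451a, Mir150 and Mir223, and the level neighbours of the highest and lowest member. Mir126b is named as the opposite-strand partner of Mir126a. Fisher's test was tested on simulated data that held counting error only, so that check does not cover spread between libraries. The statistics ran in edgeR 4.0.16 and DESeq2 1.42.0 under R 4.3.3, and in scipy 1.17.1, with pandas 2.3.3 and numpy 2.4.6 under Python 3.11.15. Plots were made with matplotlib 3.10.9.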

Additional observations from a re-analysis of the deposited data

Results flagged for a closer look

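A few reads appeared outside the strand column on a member. In replicate 2 the opposite-strand column of Mir486 held 7 reads, above the limit of 3 counts that a count of 0 allows, and in replicate 1 it held 3. The same 7 reads stand in the strand column of Mir3107, its opposite-strand partner. Mir486 itself had 108 and 67 reads in replicates 2 and 1.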

How the results depend on the processing

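None of the 8 tested members changed the direction of its log2 ratio under any alternative that gave it a value. With edgeR's exact test 0 members were called in place of 7 (0 lower and 0 higher in place of 6 and 1), and 5 of all genes in place of 239 (4 lower and 1 higher in place of 162 and 77). With TMM normalization 125 genes were lower and 111 higher, with DESeq2 size factors 121 and 119, and 5 members were called under each, without Mir155 and Mir223. The both-strand column left 5 detected members, a pan-leukocyte level of 0 CPM, a red cell level of 41.4 CPM in place of 318 and a red cell to lymphoid ratio of 0.0470 in place of 0.409. With all reads of the file as the total, the members summed to 1189 CPM in place of 2589, and the lymphoid, myeloid, pan-leukocyte, red cell and inducible classes (the last Mir146 and Mir146b) stood at 346, 37.8, 76.9, 147 and 581 CPM in place of 752, 82.1, 167, 318 and 1270. Mir150 alone as the lymphoid class gave 498 CPM, a red cell to lymphoid ratio of 0.615, and a myeloid to lymphoid ratio of 0.166 in place of 0.109. Leaving out a library gives the value of the other, from 0.287 to 0.530 for the red cell to lymphoid ratio and from 190 to 446 CPM for the red cell class, and leaves no comparison to test. Depth limits Mir146b, which had at most 3 reads in a library. No paired analysis was possible because the study has 1 group.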
